A study of Rattus norvegicus with 18 samples.

Results

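The genes described here handle iron: the ferroxidases Cp (ceruloplasmin) and Heph (hephaestin), the iron carrier Tf (transferrin) and its receptor Tfrc, the ferritin subunits Fth1 and Ftl1, the haem oxygenase Hmox1, the transporters Slc40a1 (ferroportin) and Slc11a2 (DMT1), and the hormone gene Hamp (hepcidin). They form a list of 10 genes, looked up by symbol among 32285 genes of the retina table and 32552 genes of the RPE/choroid table. The members were chosen by their function with the levels and fold changes of these same libraries already known, so the members' values are given as a description, without p-values. In retina, 9 members had a symbol in the tables and 8 had enough counts to be fitted in each comparison. In RPE/choroid, 8 had a symbol and all 8 were fitted.

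Cells take up iron when Tf, loaded with ferric iron, binds Tfrc and is drawn into endosomes, from which Slc11a2 carries the iron into the cytosol. Ferritin, a shell of Fth1 and Ftl1 chains, stores what is not used, and Hmox1 frees the iron held in haem. Ferrous iron leaves cells through Slc40a1, Cp or Heph oxidizes it so that Tf can bind it, and Hamp makes Slc40a1 leave the cell surface. When iron is scarce, the iron regulatory proteins stabilize the Tfrc message and block translation of the ferritin messages. In the retina Cp is known from Müller glia, and mice without Cp and Heph load the retina and the retinal pigment epithelium (RPE) with iron.

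Bulk RNA-Seq was done on neural retina and on RPE with choroid of wild-type Fischer 344 rats, all female by the study's methods. Each tissue had 3 groups of 3 libraries: untreated young rats of 4 months, untreated aged rats of 24 months given water alone, and aged rats of 24 months that drank 8-aminoguanine (8-AG), a purine metabolite, at 5 mg/kg/day for 8 weeks from 22 months of age. The rats came from Charles River and the National Institute on Aging, and the labels do not say which group came from which. The labels name the molecule as total RNA for the 8-AG-treated retina libraries and as polyA RNA for the other 15, so the treatment and this label cannot be told apart in retina, although the protocol gives poly-A capture for all retina libraries. RPE/choroid libraries were made by another method, which enriched full-length transcripts, so levels were not compared between tissues. Nothing in the labels says which libraries came from separate rats, and young 1 and 2 and aged 1 and 2 of RPE/choroid share a number in their names and differ there by L or R. If these are both eyes of 1 rat, which is not stated, the young and aged RPE/choroid groups hold 2 rats each and their standard errors may be too small. The p-values measure the spread between these libraries.

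Retina libraries held 12283473 to 15644369 counts and RPE/choroid libraries 28573828 to 48203050. Levels are CPM (counts scaled to a common library size) after TMM scaling over the 9 libraries of a tissue. In retina, the summed level of 9 rod photoreceptor markers was 30500 to 54700 CPM and that of 9 RPE markers 22.4 to 343 CPM. In RPE/choroid, the RPE markers summed to 5790 to 18100 CPM, yet the rod markers ranged from 538 to 50000 CPM between libraries, highest in 8-AG library 1 and also high in young 1 and 2 and aged 1 and 3. In retina, aged library 2 had the highest sums for glial activation, microglia and erythrocyte markers. Values that moved most without one of these libraries are also given without it, and in such bulk samples fewer cells of a type and less RNA per cell cannot be told apart.

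The 250 bases before the start of Cp and Tf are shown because these are the secreted ferroxidase and the carrier it loads, and both were higher in every aged retina library than in any young one. They are RefSeq sequences of build GRCr8, a later build than the Rnor_6.0 of the files, and capitals mark TATAAA read on either strand, with overlapping matches joined.
Cp, chr2:104368420-104368669, + strand: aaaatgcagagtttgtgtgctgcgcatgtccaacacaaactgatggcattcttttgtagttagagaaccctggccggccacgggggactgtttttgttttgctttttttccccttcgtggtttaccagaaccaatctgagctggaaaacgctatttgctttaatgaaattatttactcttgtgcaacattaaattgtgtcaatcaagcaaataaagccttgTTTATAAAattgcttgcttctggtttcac
Tf, chr8:112695377-112695626, - strand: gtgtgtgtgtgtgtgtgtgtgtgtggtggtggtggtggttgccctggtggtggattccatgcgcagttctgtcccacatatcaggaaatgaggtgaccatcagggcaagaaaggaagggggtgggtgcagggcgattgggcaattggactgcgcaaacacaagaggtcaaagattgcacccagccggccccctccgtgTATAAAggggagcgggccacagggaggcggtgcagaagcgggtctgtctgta
TATAAA, on either strand, was in 12.9% of 33469 RefSeq rat windows of this length. Among the 7 members with a window it was in Cp, 27 bases before the start on the sense strand, and in Tf, 52 bases before it. ACGTG, the core bound by hypoxia-inducible factors, was in 16.6% of all windows on either strand and, of the members, in Tfrc. TTCNNNGAA, a core bound by STAT factors, was in 7.67% of all windows and, of the members, in Hamp. These matches describe the letters of the windows and carry no statement on binding. Fth1, Ftl1 and Hmox1 had no window in the RefSeq table.

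The first comparison asked how aging moved these genes in retina. Cp was 4.82 times as high in aged as in young retina, and Tf and Hmox1 were also higher in every aged library than in any young one. Fth1 and Slc11a2 were higher in every aged library by less. The receptor Tfrc and the membrane ferroxidase Heph were lower in every aged library. All 8-AG-treated retinae, like the aged ones, lay above every young one for Cp, Tf, Fth1 and Hmox1.

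**Figure D1:**
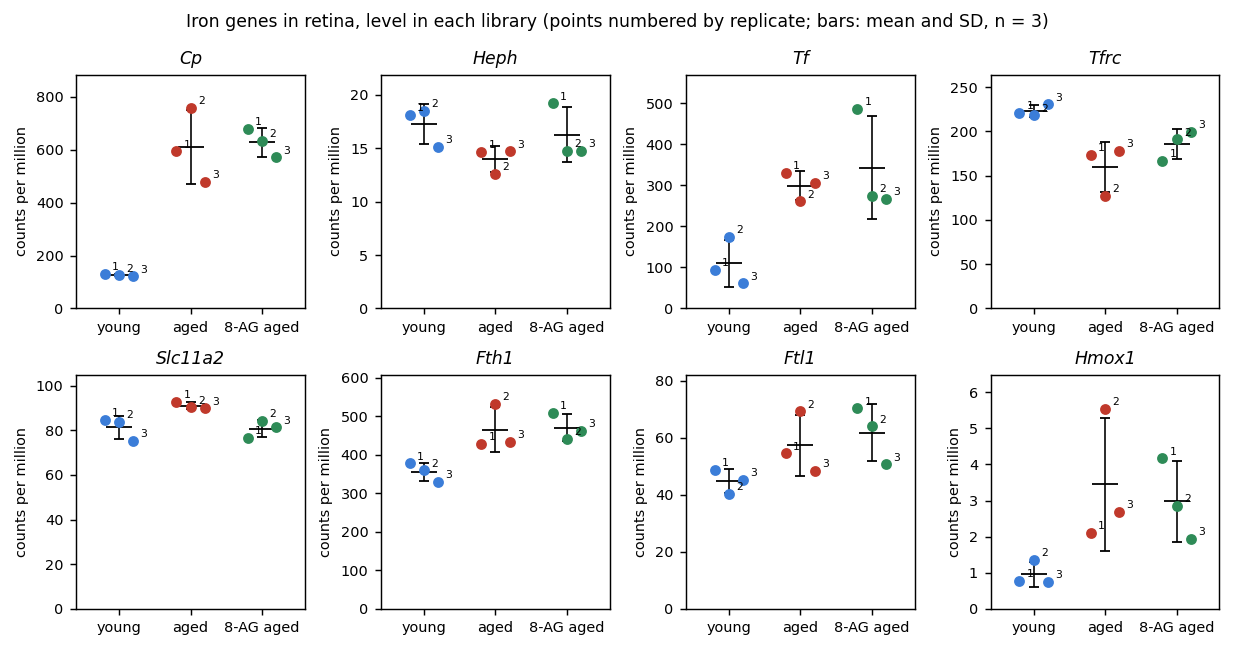
Level of 8 iron genes in each retina library in CPM, from a zero base, by group (young, aged, aged with 8-AG), with points numbered by replicate and bars showing mean and SD (n = 3). Cp sits at 122 to 132 CPM in young and at 478 to 757 CPM in aged libraries, with the 8-AG-treated libraries at 571 to 679 CPM.

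Cp, the copper-containing ferroxidase that is secreted or held on glial surfaces, had 132, 126 and 122 CPM in young retina, 594, 757 and 478 CPM in aged retina and 679, 633 and 571 CPM in 8-AG-treated aged retina. Every aged library was thus far above every young one, and aged library 2 was the highest of all 9. The log2 fold change of aged against young was 2.27 (SE 0.17, n = 3 per group), and 2.08 without aged library 2. The young libraries spread little (SD 5.17 CPM) beside the aged ones (SD 140 CPM). Heph, the membrane-bound relative of Cp, had 18.1, 18.5 and 15.1 CPM in young, 14.7, 12.6 and 14.7 CPM in aged and 19.2, 14.7 and 14.8 CPM in 8-AG-treated retina. Its aged libraries were all below the young ones, the nearest by less than the spread within the young group, with a log2 fold change of -0.30 (SE 0.12). Heph was highest in 8-AG library 1 and young libraries 2 and 1, which also had the highest lens marker sums (1310, 4880 and 2260 CPM). The part of lens RNA in the Heph values was not tested.

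Tf had 94.1, 174 and 60.8 CPM in young, 330, 261 and 306 CPM in aged and 487, 275 and 267 CPM in 8-AG-treated retina. Aged libraries were above all young ones, and young library 2 stood well apart from the other young ones. The log2 fold change was 1.45 (SE 0.44), with 1.95 when young library 2 was left out and 1.15 without young library 3. Levels of Tf went with those of RPE markers: of 9 such markers, 8 had a higher fitted level in aged retina and none was at 0. Their sums were 76.7, 140 and 22.4 CPM in young, 202, 66.8 and 162 CPM in aged and 343, 157 and 186 CPM in 8-AG-treated retina, so young library 2 was high, young library 3 low and 8-AG library 1 highest for both. Aged library 2 departed from this, with RPE markers below young library 1 and Tf well above it. The part of RPE RNA in the Tf values was not tested.

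Tfrc, which takes Tf into cells, had 221, 218 and 231 CPM in young and 174, 127 and 178 CPM in aged retina. The young libraries lay close together and above all aged ones, with aged library 2 lowest. The log2 fold change was -0.48 (SE 0.12), and -0.34 without aged library 2. With 8-AG the values were 167, 191 and 200 CPM, still below every young library.

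Slc11a2, the endosomal iron transporter, had 84.7, 83.9 and 75.4 CPM in young, 92.8, 90.4 and 89.9 CPM in aged and 76.8, 84.2 and 81.4 CPM in 8-AG-treated retina. The aged libraries were the 3 highest of 9, by a small margin: the log2 fold change of aged against young was 0.16 (SE 0.06). Slc40a1, the exporter, had no symbol in the retina tables. The identifier that the RPE/choroid tables pair with it held 0 to 7 counts in a retina library, too few to be fitted. Before rounding, its counts above 0 were not whole (0.93 to 7.2). Its reads may thus be split with other sequences, and its level is uncertain. Hamp was listed at 0 in all 9 retina libraries. A count of 3 over the 9 retina libraries together would be 0.024 CPM, which is the level that a count of 0 allows for counting error alone.

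Fth1, the ferritin chain with ferroxidase activity, had 378, 360 and 330 CPM in young, 429, 533 and 433 CPM in aged and 509, 441 and 462 CPM in 8-AG-treated retina. All aged and all treated libraries were above all young ones, and the log2 fold change of aged against young was 0.38 (SE 0.09), or 0.28 without aged library 2. Ftl1, the chain that helps iron form its mineral core, had 48.8, 40.3 and 45.2 CPM in young and 54.5, 69.2 and 48.4 CPM in aged retina. Aged library 3 fell just under young library 1, so the groups overlapped, with a log2 fold change of 0.36 (SE 0.13), or 0.20 without aged library 2. Treated libraries had 70.3, 64.0 and 50.7 CPM. Ferritin genes have near-identical copies in the rat genome, between which reads may be split, so the levels of Fth1 and Ftl1 are uncertain.

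Hmox1, the stress-inducible enzyme that opens haem, was a low-count gene, with 10 to 18 counts per young library. It had 0.770, 1.35 and 0.743 CPM in young, 2.11, 5.54 and 2.69 CPM in aged and 4.17, 2.85 and 1.94 CPM in 8-AG-treated retina. Every aged and treated library was above every young one, with aged library 2 far above the other two. The log2 fold change of aged against young was 1.86 (SE 0.43), and 1.33 without aged library 2.

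Of the 8 members fitted in aged against young retina, 3 were higher (Cp, Fth1 and Hmox1) and 1 lower (Tfrc) at an adjusted p under 0.05, where 14.6% of all 14588 genes were called. By the study's rule (more than 1.5-fold, P under 0.05 before adjustment), 3 were higher (Cp, Tf and Hmox1) and none lower, where 8.84% of genes were called. Groups did not overlap for 5 members that were higher and 2 that were lower, where 35.3% of all genes did not overlap. The median log2 fold change of the 8 was 0.37 and that of all genes 0.0. Since these values were known when the list was made, nothing is read from the counts.

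**Figure D2:**
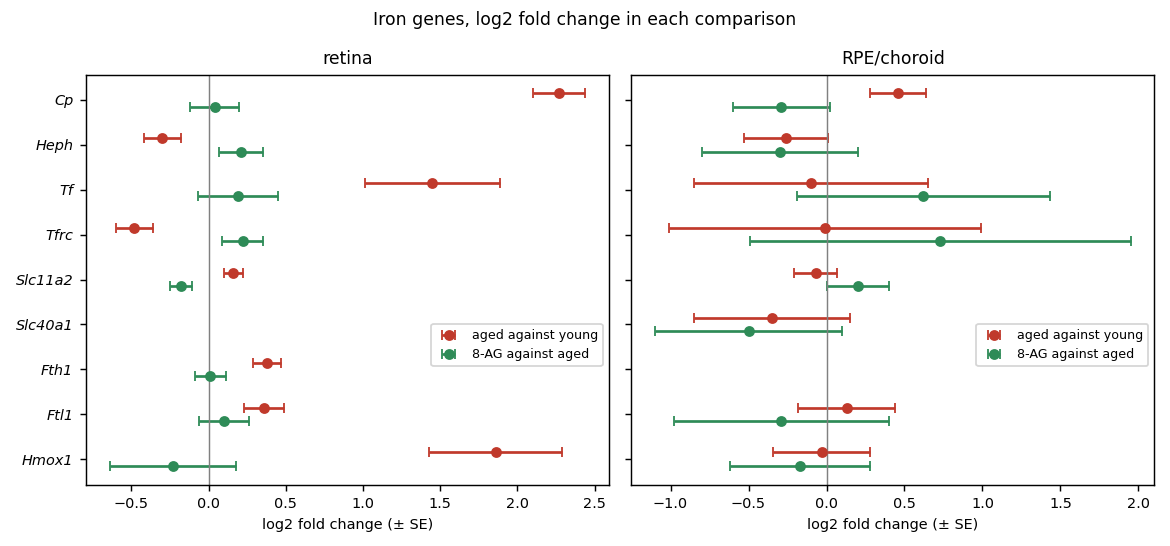
Fitted log2 fold change with its standard error for each iron gene, in retina (left) and RPE/choroid (right), for aged against young and 8-AG-treated against untreated aged rats, with n = 3 libraries per group. In retina Cp stands at 2.27 with aging and at 0.04 with 8-AG, and the bars are wider in RPE/choroid, up to 1.22 for Tfrc.

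Marker levels of other cells differed between young and aged retina beside these genes. All 9 rod markers had a lower fitted level in aged retina, with sums of 49900 to 54700 CPM in young and 30500 to 35000 CPM in aged libraries. Of 5 glial activation markers 4 were found, all with a higher fitted level, at 108 to 119 CPM in young and 379 to 669 CPM in aged libraries. Of 10 microglia and macrophage markers all were found, and the 9 fitted had a higher fitted level, with sums of 78.9 to 80.4 CPM in young and 178 to 275 CPM in aged libraries. The 8 Müller glia markers were split evenly between higher and lower, with sums of 5610 to 5820 CPM in young and 4890 to 5140 CPM in aged libraries. Of 7 erythrocyte markers 3 were found, with sums of 12.4 to 21.5 CPM in young and 38.8 to 185 CPM in aged libraries. Each of the 6 lens markers was fitted lower in aged libraries (median -6.61 on the log2 scale), and they summed to 2260, 4880 and 118 CPM in young, 18.9, 13.0 and 14.2 CPM in aged and 1310, 14.5 and 14.6 CPM in 8-AG-treated libraries. Lens markers were thus high in every young library and in 8-AG library 1. Of 6 endothelial markers 5 were found, of which 4 had a higher fitted level and 1 a lower one, while their sums overlapped, at 613 to 679 CPM in young and 560 to 679 CPM in aged libraries. Of 7 markers of myelinating cells 4 were fitted, 2 higher and 2 lower, with sums of 53.3 to 54.2 CPM in young and 64.4 to 71.2 CPM in aged libraries. No marker of these lists was at 0 throughout, and their part in the iron gene values was not tested.

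The question of the treated comparison was whether 8-AG moved these genes in aged retina; it shares the aged libraries with the aging comparison, so the values are set side by side without being related. Cp, Tf, Tfrc, Fth1, Ftl1 and Hmox1 overlapped between 8-AG-treated and untreated aged retina. Slc11a2 was lower in every treated library, with a log2 fold change of -0.18 (SE 0.07), and its treated values fell within the young range. Heph was higher in every treated library, with 0.21 (SE 0.14) and 0.08 without treated library 1, although treated libraries 2 and 3 stood barely above the highest aged one. Lens markers summed to 1310 CPM in treated library 1 and to 14.5 and 14.6 CPM in treated libraries 2 and 3. Their part in the Heph value was not tested. For Cp the log2 fold change was 0.04 (SE 0.16), ranging from -0.11 to 0.23 as 1 library was left out.

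Tf had a log2 fold change of 0.19 (SE 0.26) with 8-AG, and -0.15 without treated library 1, the library with the highest RPE markers. Tfrc had 0.22 (SE 0.13), and 0.08 without aged library 2. Fth1 had 0.01 (SE 0.10) and Ftl1 0.10 (SE 0.16), which without aged library 2 were 0.13 and 0.26. Hmox1 had -0.23 (SE 0.41) and turned to 0.31 without aged library 2. None of the 8 members was called at an adjusted p under 0.05, where 0.0205% of 14631 genes were called, or by the study's rule, where 0.957% were. Groups did not overlap for 1 member that was higher and 1 lower, beside 8.78% of all genes. The median log2 fold change of the members was 0.07.

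The genes whose retina levels ran most like those of Cp over the 9 libraries, by Pearson's r of log2(CPM + 1) among 11685 genes, were LOC103689965 (r = 0.997), Mpeg1 (0.996), A2m (0.995), Chdh (0.995) and Chi3l1 (0.995). Mpeg1 encodes a pore-forming protein of macrophages and A2m a broad protease inhibitor. All points share the same 9 libraries in 3 groups, 420 genes had r over 0.9, and the part of the difference between groups in this likeness was not tested. Nearest to Tf were Decr1 (0.988), Krt18 (0.985), Vwa5a (0.984) and Aldh2 (0.979), among which Krt18 is an epithelial keratin. Nearest to Heph were Alad (0.979), Kif26a (0.951), Cdon (0.939), Rcor2 (0.931) and Dcbld2 (0.931). Alad belongs to haem synthesis and appears again in the wider list below. Like Heph, it was highest in young 1, young 2 and 8-AG library 1, which had the highest lens marker sums.

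A wider list of 97 names of iron and haem genes, none of them members and some of them older and newer names of a gene, was laid out by role. This list was also chosen with earlier results of these data known, so its counts are no independent test. In retina 87 matched and 80 were fitted in aged against young. By edgeR's quasi-likelihood test, 5 were higher and 10 lower at a Benjamini-Hochberg adjusted p under 0.05 over all genes, which is beside the 14.6% called among all genes. By the study's rule 5 were higher and 2 lower, or 7 of 80, beside the 8.84% of all genes called. Of these 7, Bmp6, a ligand that drives hepcidin, with a log2 fold change of 1.16 (SE 0.46, edgeR adjusted p = 0.12), and Hephl1, a relative of Heph, with -0.99 (SE 0.38, edgeR adjusted p = 0.11), did not pass the adjusted test and are named after their values were seen. Bmp6 and Hephl1 each passed the study's rule in 3 of 6 fits without a library. In the counts by role below, higher and lower refer to an edgeR adjusted p under 0.05. The median log2 fold change was 0.02 and that of all genes 0.0, with 42 of the 80 fitted above 0 and 36 below. Without aged library 2 the count of 15 fell to 5, and without young library 1 or 2 to 6. DESeq2 also called 12 of the 15, but not Lcn2, Hfe or Cyb561. It called 3 further genes higher, named after their values were seen: Nfe2l2, an oxidant-responsive factor, with a log2 fold change of 0.48 (DESeq2 adjusted p = 0.02, edgeR adjusted p = 0.051), Steap4, a metalloreductase, with 2.97 (DESeq2 adjusted p = 0.026) and Alas2, the erythroid enzyme that starts haem synthesis, with 2.77 (DESeq2 adjusted p = 0.027). Steap4 and Alas2 had too few counts for edgeR's filter and were not among the 80. Alas2 is itself an erythrocyte marker, the sum of which was highest in aged library 2, and its 1.68 ± 1.76 CPM (SD, n = 3) in aged against 0.249 ± 0.127 CPM in young retina had an SD above its mean. The part of blood RNA in it was not tested.

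**Figure D3:**
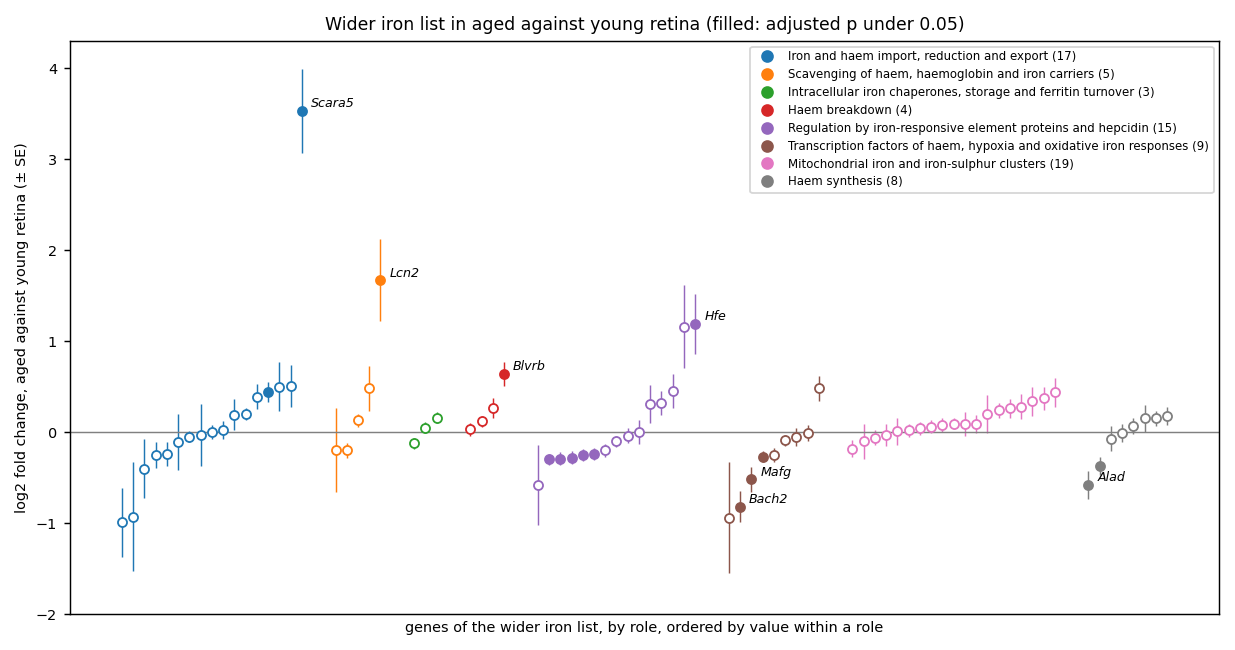
Log2 fold change of aged against young retina with its standard error for the 80 fitted genes of the wider iron list, coloured by role and ordered by value within each role, with filled points where the adjusted p was under 0.05. Most genes sit near 0, with Scara5 at 3.53 and Lcn2 at 1.67 standing above the rest.

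Among genes of import, reduction and export, 2 of the 17 fitted were higher and none lower at that threshold. Scara5, a ferritin receptor of the cell surface, had 6, 4 and 1 counts in young and 34, 66 and 40 counts in aged libraries, or 0.462, 0.301 and 0.0675 CPM against 2.65, 4.21 and 2.76 CPM. Every aged library was well above every young one, and its log2 fold change was 3.53 (SE 0.46, edgeR adjusted p = 0.0011). With 8-AG it stayed at 2.53 to 3.24 CPM. Cyb561, a haem protein that passes electrons across membranes, had 13.0 to 14.7 CPM in young and 16.5 to 19.5 CPM in aged libraries, and rose with a log2 fold change of 0.44 (SE 0.11, edgeR adjusted p = 0.023).

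Of 5 fitted scavengers of haem and iron carriers, 1 was higher: Lcn2, which binds bacterial iron chelators, had 0.270 to 0.693 CPM in young and 0.898 to 2.04 CPM in aged libraries. Its log2 fold change was 1.67 (SE 0.45, edgeR adjusted p = 0.035) from at most 32 counts per library, and it is also among the glial activation markers. Of 4 genes of haem breakdown, Blvrb, a biliverdin reductase, had 6.78 to 7.82 CPM in young and 10.1 to 12.0 CPM in aged libraries. Its log2 fold change was 0.64 (SE 0.13, edgeR adjusted p = 0.0092), and the other 3 genes did not pass the test.

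Of 15 fitted regulators that act through iron regulatory proteins or hepcidin, 1 was higher and 5 were lower by the adjusted test. The higher one was Hfe, which senses iron together with transferrin receptors, with 0.540 to 0.847 CPM in young and 1.40 to 2.0 CPM in aged libraries and a log2 fold change of 1.19 (SE 0.33, edgeR adjusted p = 0.038). That call was lost whichever of the 6 libraries was left out. Smad4, which carries bone morphogenetic protein signals, fell by 0.30 on the log2 scale (SE 0.06, edgeR adjusted p = 0.010). The receptor Bmpr1a fell by 0.29 (SE 0.07) and Ireb2, an iron regulatory protein, by 0.28 (SE 0.07), each with an edgeR adjusted p of 0.023. Ireb2 had 71.0 to 73.8 CPM in young and 55.9 to 64.7 CPM in aged libraries, a small but complete separation.

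Of 9 transcription factors that respond to haem, hypoxia or oxidants, 3 were lower and none higher by edgeR's adjusted p, Nfe2l2 being called by DESeq2 alone. Bach2, a relative of the haem-sensing repressor Bach1, had 8.93, 11.4 and 10.5 CPM in young and 7.09, 5.10 and 5.32 CPM in aged retina, with a log2 fold change of -0.82 (SE 0.17, edgeR adjusted p = 0.0097). Mafg, a small partner of such factors, had -0.52 (SE 0.14, edgeR adjusted p = 0.035). Of 8 genes of haem synthesis, Alad, which makes porphobilinogen, had -0.58 (SE 0.15, edgeR adjusted p = 0.034) and Cpox, a later enzyme, had -0.37 (SE 0.10, edgeR adjusted p = 0.030). Alad was highest in young 1, young 2 and 8-AG library 1, at 26.6, 30.9 and 30.5 CPM, the libraries with the highest lens marker sums. Its call was lost without aged library 1 or 2 or young library 1 or 2, and the part of lens RNA was not tested. None of the 19 genes of mitochondrial iron and iron-sulphur clusters and none of 3 iron chaperone and storage genes passed the test. Across the 15 genes, 5 kept an adjusted p under 0.05 whichever library was left out: Scara5, Blvrb, Smad4, Bach2 and Hif1a. Hif1a, the oxygen-regulated factor, is named after its values were seen, with a log2 fold change of -0.27 (SE 0.06, edgeR adjusted p = 0.010).

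With 8-AG in aged retina, 83 genes of the wider list were fitted and none passed the edgeR test at an adjusted p under 0.05 or the study's rule, with a median log2 fold change of 0.0. DESeq2 also called none, and 3 had an unadjusted P under 0.05, each with an edgeR adjusted p of 1.0. Named after their values were seen, these were Id1 with a log2 fold change of -0.55 (SE 0.20), Hif1a with 0.19 (SE 0.07) and Bach2 with 0.51 (SE 0.22).

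In RPE/choroid the aging comparison had a wider spread between libraries. Cp was again higher in every aged library than in any young one, by less than in retina, and no other member was separated. Tf and Tfrc differed more between libraries of 1 group than between groups. In all 9 libraries, Tfrc was high where rod markers were high, and Ftl1, Hmox1 and Heph were lowest in 8-AG library 1, where the rod markers were highest.

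**Figure D4:**
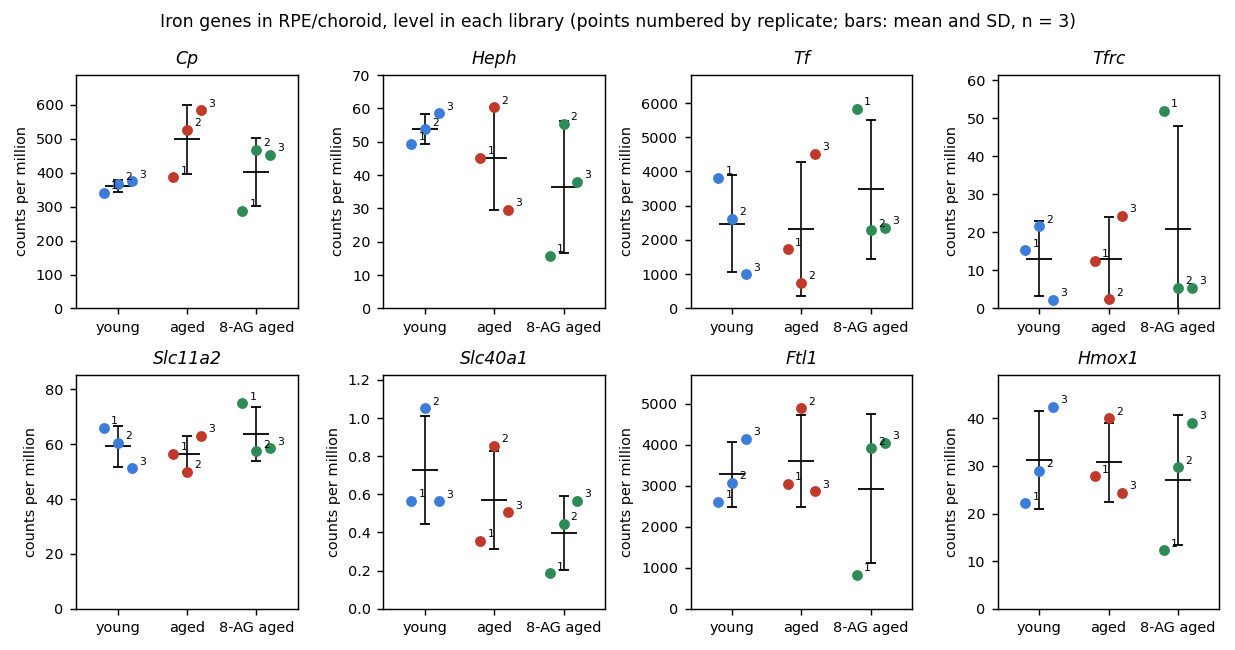
Level of 8 iron genes in each RPE/choroid library in CPM, from a zero base, by group (young, aged, aged with 8-AG), with points numbered by replicate and bars showing mean and SD (n = 3). Cp in aged libraries, at 387 to 584 CPM, lies above young libraries at 340 to 375 CPM, while Tf and Tfrc spread widely inside each group.

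Cp had 340, 368 and 375 CPM in young, 387, 526 and 584 CPM in aged and 288, 467 and 453 CPM in 8-AG-treated RPE/choroid. The lowest aged library stood just above the highest young one, and the treated libraries spanned both groups. The log2 fold change of aged against young was 0.46 (SE 0.18), from 0.34 to 0.60 as 1 library was left out. Glial activation markers, of which 3 were fitted and all were higher, summed to 167 to 203 CPM in young and 245 to 527 CPM in aged libraries, and their part in the Cp values was not tested. Heph had 49.4, 53.7 and 58.6 CPM in young, 45.1, 60.3 and 29.6 CPM in aged and 15.8, 55.3 and 37.9 CPM in treated libraries. Its groups overlapped, with a log2 fold change of aged against young of -0.26 (SE 0.27), which was -0.03 without aged library 3 and -0.54 without aged library 2. Heph was low where endothelial markers were low: the 5 found of 6 summed to 582 CPM in 8-AG library 1 and to 2950 CPM in aged library 3, against 3450 to 6670 CPM in the other 7. The same 2 libraries were also lowest for RPE markers, at 5790 and 9250 CPM, and for microglia and macrophage markers, at 564 and 1250 CPM. All 5 endothelial markers had a lower fitted level in aged libraries, with sums of 2950 to 4340 CPM against 5060 to 6670 CPM in young ones. The part of any of these cells in the Heph values was not tested.

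Tf, which the RPE also makes, had 3820, 2611 and 1003 CPM in young, 1730, 743 and 4522 CPM in aged and 5827, 2283 and 2347 CPM in treated RPE/choroid. All 3 groups overlapped, with a log2 fold change of aged against young of -0.10 (SE 0.75). Leaving out aged library 3 gave -0.99 and leaving out young library 1 gave 0.35. Tfrc had 15.2, 21.6 and 2.34 CPM in young, 12.5, 2.44 and 24.3 CPM in aged and 52.0, 5.36 and 5.37 CPM in treated libraries. Rod markers in the same order summed to 16300, 18000 and 1780 CPM, 10300, 538 and 15000 CPM, and 50000, 773 and 753 CPM, so the 5 libraries with rod sums of at least 10300 CPM were the 5 with the highest Tfrc. Its log2 fold change was -0.01 (SE 1.0), and the part of rod RNA in it was not tested.

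Ftl1 had 2614, 3065 and 4147 CPM in young, 3038, 4887 and 2866 CPM in aged and 823, 3915 and 4040 CPM in treated RPE/choroid, and its groups overlapped. Hmox1 had 22.1, 29.0 and 42.4 CPM in young, 27.8, 40.0 and 24.3 CPM in aged and 12.3, 29.7 and 39.1 CPM in treated libraries, also with overlap. Both had their highest levels in young library 3 and aged library 2 and their lowest in 8-AG library 1. The 9 microglia and macrophage markers found of 10 were also highest in aged library 2 and lowest in 8-AG library 1, with sums of 2220 and 564 CPM, and their part was not tested. The log2 fold change of aged against young was 0.13 (SE 0.31) for Ftl1 and -0.03 (SE 0.31) for Hmox1. Fth1 had no symbol in the RPE/choroid tables, and its identifier was listed at 0 in all 9 libraries. Of 2147 genes with a mean of at least 100 CPM in retina that both tables hold, 8 were at 0 in every RPE/choroid library, so no level is given for Fth1 there.

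Slc11a2 had 66.0, 60.5 and 51.2 CPM in young, 56.6, 50.04 and 63.1 CPM in aged and 74.9, 57.4 and 58.6 CPM in treated RPE/choroid. The groups overlapped, with 8-AG library 1 the highest of the 9. Slc40a1 was a low-count gene here, with 17, 39 and 27 counts in young, 11, 29 and 15 in aged and 6, 16 and 26 in treated libraries. Its log2 fold change was -0.35 (SE 0.50) with aging, which was -0.77 without aged library 2 and 0.0 without young library 2. Hamp had no symbol in the RPE/choroid tables and was not analysed there.

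**Figure D5:**
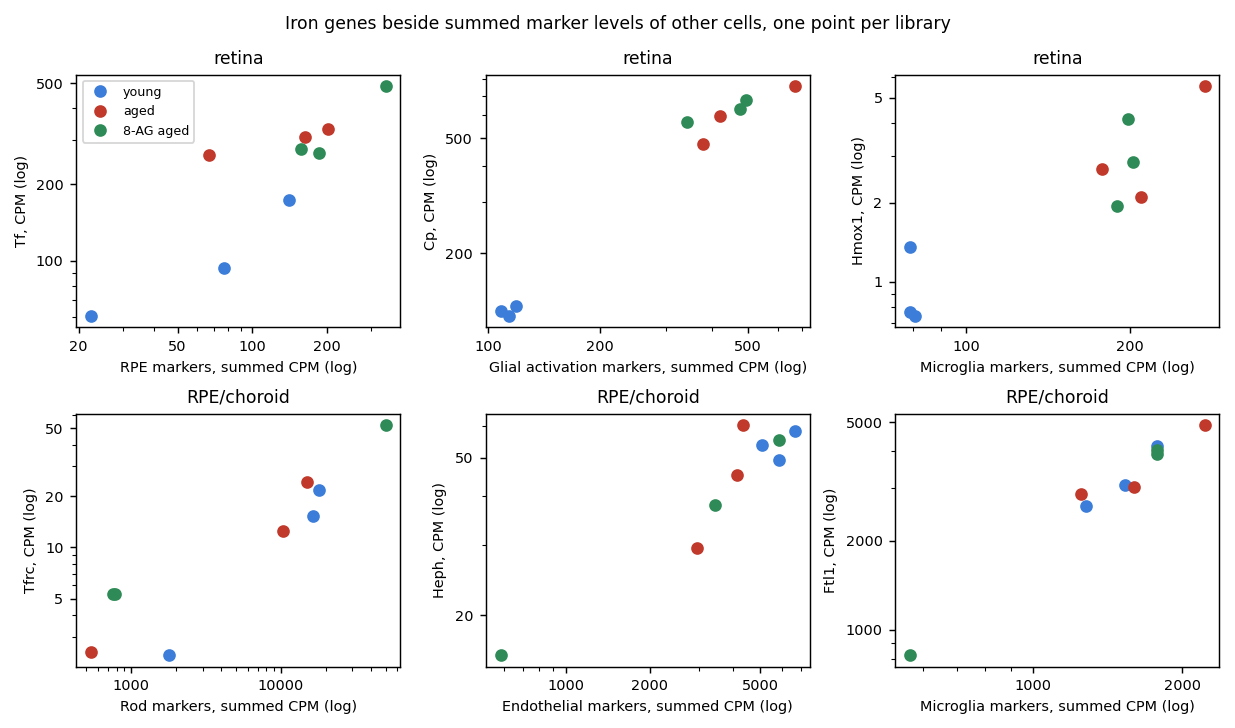
Level of an iron gene against the summed level of marker genes of other cells in each of 9 libraries per tissue, in CPM on log axes, coloured by group. In retina, Tf is plotted beside RPE markers, Cp beside glial activation markers and Hmox1 beside microglia markers, and in RPE/choroid, Tfrc beside rod, Heph beside endothelial and Ftl1 beside microglia markers, with 8-AG library 1 at 50000 CPM of rod markers and 52.0 CPM of Tfrc.

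No member was called in aged against young RPE/choroid, where edgeR called 0% of 16047 genes at an adjusted p under 0.05, 341 had an unadjusted P under 0.05, and DESeq2 called 26. By the study's rule no member was called either, and 1.35% of genes were. Groups did not overlap for 1 member, Cp, beside 7.1% of all genes. The median log2 fold change of the 8 members was -0.05 and that of all genes 0.02.

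In 8-AG-treated against aged RPE/choroid, all 8 members overlapped between groups. The largest fitted differences were those of Tfrc, 0.73 (SE 1.22), and Tf, 0.62 (SE 0.81), and both moved widely with single libraries. Without 8-AG library 1 they were -1.29 and -0.01, and without aged library 3 each was 1.53. Without 8-AG library 1, Ftl1 went from -0.29 to 0.14, Hmox1 from -0.17 to 0.16 and Heph from -0.30 to 0.05. Cp had -0.29 (SE 0.31), and -0.12 without that library. Slc11a2 had 0.20 (SE 0.20), and 0.04 without it, and Slc40a1 had -0.50 (SE 0.60), and -0.09 without aged library 2. edgeR called 0% of 16257 genes here, 274 had an unadjusted P under 0.05, and DESeq2 called 70. By the study's rule 1.65% of genes were called, and 3.96% of genes did not overlap between groups, no member among either. The median log2 fold change of the members was -0.23 and that of all genes 0.01.

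The genes nearest to Cp in RPE/choroid, among 11795 genes, were Itgae (r = 0.980), Cthrc1 (0.960), Chmp5 (0.959), AABR07049329.1 (0.958) and Rpl17 (0.955). Nearest to Tf were Ttr (0.996), Tmem27 (0.991), Tmprss3 (0.986), Pon1 (0.984) and Ddah1 (0.977), of which Ttr carries thyroxine. Ttr is among the 9 RPE markers, but the sum of these was lowest, at 5790 and 9250 CPM, in 8-AG library 1 and aged library 3, the libraries with the highest Tf. Nearest to Heph were Serinc3 (0.995), Pam (0.995), Stab1 (0.993), Col14a1 (0.993) and Timp3 (0.993), and 1303 genes had r over 0.9 with it. These values share the same 9 libraries, whose marker sums differ widely.

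Of the wider list, 87 genes were fitted in each RPE/choroid comparison and edgeR called none at an adjusted p under 0.05. In aged against young, 3 of the 87 had an unadjusted P under 0.05, and all were lower by the study's rule, beside 1.35% of all genes, each with an edgeR adjusted p of 1.0. Bach2 had 1.77, 2.40 and 1.82 CPM in young and 0.516, 0.471 and 0.607 CPM in aged libraries, with a log2 fold change of -1.91 (SE 0.32), from -2.0 to -1.77 as 1 library was left out. Alas2 had 13.0, 3.02 and 40.4 CPM in young and 2.42, 1.80 and 1.89 CPM in aged libraries, a log2 fold change of -3.21 (SE 0.92), from -3.72 to -1.99 as 1 library was left out. It is itself an erythrocyte marker, and the 4 such markers found of 7 summed to 235 to 3270 CPM in young and 157 to 220 CPM in aged libraries. Flvcr2, a transporter described for haem and choline, had -0.60 (SE 0.23), and passed in 1 of 6 fits without a library. DESeq2 called 2 of these, Bach2 and Alas2, with DESeq2 adjusted p of 0.0047 and 0.048.

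With 8-AG, 3 genes of the wider list had an unadjusted P under 0.05 in RPE/choroid, all higher by the study's rule, beside 1.65% of all genes (201 higher and 68 lower), each with an edgeR adjusted p of 1.0, and DESeq2 called none. Bach2 had 2.52, 1.53 and 0.742 CPM, above every aged library, with a log2 fold change of 1.61 (SE 0.57). Alas2 had 7.95, 1.86 and 29.4 CPM, with 2.70 (SE 0.99) and 1.27 to 3.21 as 1 library was left out, and the erythrocyte markers summed to 529, 131 and 2330 CPM in the same libraries. Steap1, a member of the STEAP family, had 2.36, 0.583 and 56.3 CPM against 0.935, 1.15 and 0.911 CPM in aged libraries, so its 4.3 (SE 1.73) rested on 8-AG library 3 and was 0.56 without it. Without 1 library these calls held in 1 of 6 fits for Bach2 and in 2 of 6 for Alas2 and Steap1.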

How the data were processed

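The 10 iron genes and the wider list of 97 names were chosen with earlier results of these data known. For retina the authors deposited RSEM expected counts per gene, not normalized, of which 11.5% were not whole, and these were rounded. For RPE/choroid the authors deposited raw counts per gene. The submitters' processing notes name Bowtie2 2.1.0, RSEM 1.2.15, edgeR and the build Rnor_6.0, without their roles. The program that counted RPE/choroid reads is not given in the sources used here.

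Retina symbols came from a deposited table of TMM-normalized signal made by the authors. Its values divided into whole counts (within 0.02 for 99.99%) and were matched to identifiers over the 9 libraries. Of 14812 identifiers named this way and by the RPE/choroid tables, 91.2% had the same name. Tables of the authors' own comparisons (fold changes, P, FDR) were used for symbols only.

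The fits used edgeR 4.0.16 under R 4.3.3, each on the 6 libraries of its pair of groups (filterByExpr, TMM, estimateDisp, glmQLFit with robust=TRUE, glmQLFTest), and were checked on simulated data. Adjusted p is by Benjamini-Hochberg over all genes tested. The standard error is the absolute log2 fold change divided by the square root of F. Levels are CPM with TMM factors over 9 libraries. Precision is limited by 3 libraries per group, and counts of 12283473 to 48203050 per library leave low genes such as Slc40a1 at counting error.

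Named genes are all members, wider genes with an adjusted p under 0.05 (at most 12 by size of change, otherwise at most 8 by the study's rule), and the 5 genes most like Cp, Tf and Heph in each tissue (mean CPM of at least 5, pseudocount 1), of which 1 is not reported here. Marker lists of rods, Müller glia, glial activation, microglia, RPE, endothelium, myelinating cells, erythrocytes and lens came from general knowledge. In RPE/choroid, myelin markers summed to 175 to 1010 CPM and lens markers to 13.7 to 397 CPM. Alternatives were DESeq2 1.42.0, RLE size factors, keeping all genes with a count, a minimum of 10 counts per library, 1 fit over the 3 groups of a tissue, a replicate block, libraries with a shared label number summed (RPE/choroid), the deposited TMM values (members in retina) and leaving out each library. Reads and coordinates of the files' build were not used here.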

Additional observations from a re-analysis of the deposited data

Results flagged for a closer look

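The fitted values of Slc11a2 with 8-AG had opposite signs in the 2 tissues, and it was called in neither. In retina all 3 treated libraries were below all 3 aged ones, with a log2 fold change of -0.18 (SE 0.07). There the treatment and the molecule label cannot be told apart. In RPE/choroid the treated libraries were above the mean of the aged ones, with 0.2 (SE 0.2), although the groups overlapped there. The value was 0.04 without 8-AG library 1, which had the highest rod marker sum, at 50000 CPM. The difference between tissues was not tested.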

How the results depend on the processing

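In aged against young retina the 8 fitted members kept their direction under all 13 alternatives, and genes called went from 2127 to between 1243 and 2318 as 1 library was left out, wider iron genes from 15 to between 5 and 13. In 8-AG-treated against aged retina the 3 genes called became 17 with DESeq2, 10 with no filter, 0 with at least 10 counts in every library, 0 with the replicate block and 0 to 3 with 1 library left out. There 5 members (Cp, Tf, Fth1, Ftl1 and Hmox1) changed sign in at least 1 such fit. In aged against young RPE/choroid DESeq2 called 26 genes and 2 wider iron genes where edgeR called 0, and with 8-AG in that tissue 70 genes where edgeR called 0. Summing libraries that share a label number turned Tf to 0.44, Tfrc to 0.56 and Ftl1 to -0.05 for aging, and with 1 library left out 4 members changed sign there and 5 with 8-AG. The cause was not tested. By the study's rule, the 140 retina genes of 8-AG became 92 with at least 10 counts, 317 with no filter and up to 256 without 1 library. The 217 aging genes of RPE/choroid became 384 with DESeq2, 364 with no filter, 131 with 3 groups in one fit, 138 with the block and up to 414 without 1 library, and the 269 with 8-AG became 755, 503, 465, 306 and 86 to 733, or 85 with libraries summed. Wider iron genes by that rule went from 7 to 2 with at least 10 counts (retina aging), from 0 to 1 with the block and 2 without a library (retina 8-AG), from 3 to 1 with the block and 5 without aged library 3 (RPE/choroid aging) and from 3 to 0 with libraries summed or without aged library 1 (RPE/choroid 8-AG). Same-numbered libraries share only a number: their deviations correlated from -0.58 to 0.65, and the replicate block left 1699 genes and 12 wider iron genes called for retina aging. Slc40a1, with 6 to 39 counts in RPE/choroid, went from -0.35 to -0.77 without aged library 2 and 0.0 without young library 2, and has no value for 8-AG with at least 10 counts in every library. Slc40a1 and Hmox1 in retina are limited by their low counts. The counts of Slc40a1 there were also not whole before rounding, so its reads may be split with other sequences.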
